A study of Drosophila melanogaster with 3 samples.

Results

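The nuclear genes of the mitochondrial respiratory chain and the ATP synthase were followed in a chromatin immunoprecipitation sequencing (ChIP-seq) map of the Drosophila melanogaster protein YL-1. Members were the protein-coding genes whose symbol begins with ND-, COX4 to COX8, ATPsyn or UQCR-, together with SdhA, SdhB, SdhC, SdhD, RFeSP, Cyt-c1 and blw. That rule found 87 of 13945 protein-coding genes on the 6 chromosome arms that hold peaks. Of these, 21 have a name that ends in L or in L and a digit and are called duplicates here, and 66 are not duplicates, ND-MNLL included, which is named after a peptide. The embryos were 0 to 24 h old, of mixed sex, and came from a transgenic line with GFP fused to the C terminus of YL-1. An antibody against GFP was used on sonicated chromatin of 200 to 800 bp. There were 3 biological replicates of this 1 group, and no control group was analysed here. Whole embryos were used, so a summit averages over all cell types and over the whole of embryogenesis.

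The respiratory chain moves electrons from NADH and succinate to oxygen and pumps protons across the inner mitochondrial membrane, and the ATP synthase uses the proton gradient to make ATP. Complex I is the NADH dehydrogenase, complex II the succinate dehydrogenase, complex III the ubiquinol-cytochrome c reductase, complex IV the cytochrome c oxidase and complex V the ATP synthase. In Drosophila many of the nuclear genes for these subunits have a duplicate, and such duplicates are known for expression in the testis. YL-1 belongs to chromatin complexes built around Domino and Tip60 and is known as a chaperone of the histone variant H2Av.

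A gene was called bound when the summit of a peak lay within 250 bp of any of its annotated start sites. The peaks were those of the authors' list thresholded on the irreproducible discovery rate (IDR), a measure of how well peaks recur between replicates, and this list held 5986 peaks. Of the 87 members, 58 were bound (66.7%, exact binomial 95% interval 55.7% to 76.4%), against 4655 of all 13945 genes (33.4%). Of the 21 duplicates 0 were bound, with an exact upper limit of 16.1%. The bound members were all among the 66 that are not duplicates, at 87.9% (77.5% to 94.6%). The intervals cover the counting of genes only, and members that are neighbours or share a summit are not independent. The strongest 5986 regions of each replicate, called top regions, gave 0, 0 and 0 bound duplicates in replicates 1, 2 and 3. Among the members that are not duplicates they gave 57, 61 and 54 bound genes, which is 86.9% ± 5.32 (SD, n = 3). Of all protein-coding genes they gave 32.8%, 31.3% and 32.3% in replicates 1, 2 and 3. In each replicate the members that are not duplicates had a higher share than all genes, and the duplicates a lower one.

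**Figure D1:**
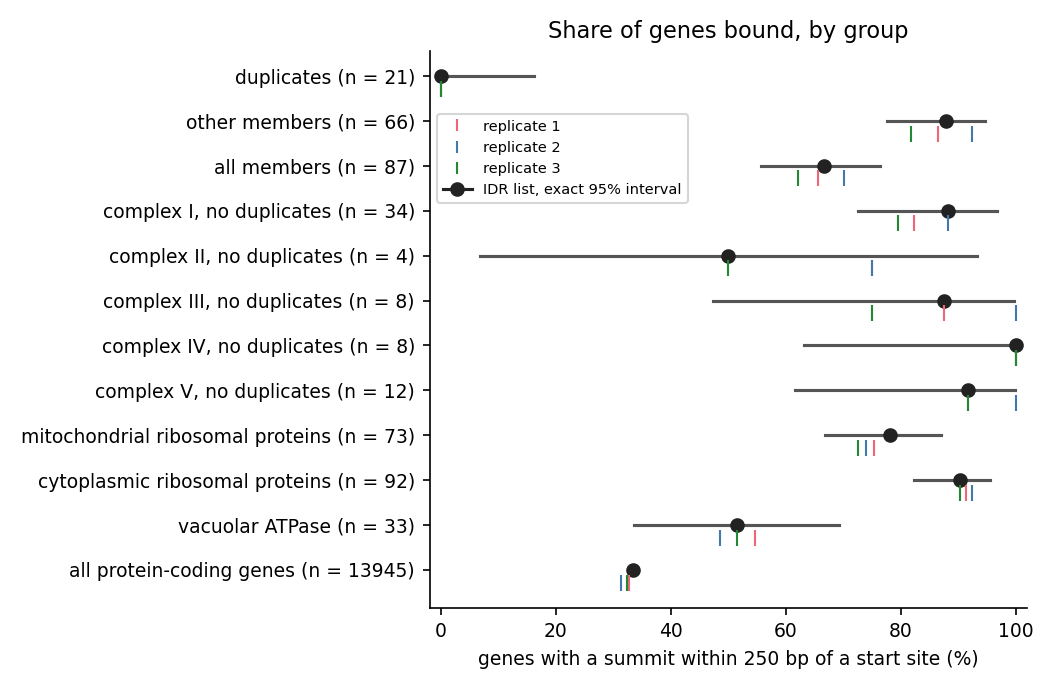
Share of genes with a summit within 250 bp of a start site (x axis, %) for duplicates, the other members, the complexes and, for comparison, ribosomal protein, vacuolar ATPase and all genes. Black points are the IDR list with an exact binomial 95% interval and coloured ticks the 3 replicates; duplicates lie at 0% and the other members at 87.9%.

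Promoter sequences of duplicates and of their parents are shown first because none of the duplicates was bound and nearly all of the parents were. Each run covers 100 bases before to 50 bases after the start site, on the gene's own strand, read from RefSeq's copy of the Release 6 assembly (dm6). Capitals mark matches on either strand to the motifs described further on. COX5BL (chr2L:6559331-6559480, plus strand) was not bound, and its parent COX5B (chr2L:6557700-6557849, plus strand), which precedes it on the same strand with a start 1631 bp away, was bound with a summit 29 bp downstream of the start. COX7AL (chr3R:8343569-8343718, plus strand) was not bound, and its parent COX7A (chr3R:8340994-8341143, minus strand), with a start 2626 bp away, was. ATPsynbetaL (chr3L:16097734-16097883, plus strand) was not bound, and its parent ATPsynbeta, the catalytic subunit of the ATP synthase, was bound at the start site shown (chr4:1031764-1031913, plus strand).
COX5BL: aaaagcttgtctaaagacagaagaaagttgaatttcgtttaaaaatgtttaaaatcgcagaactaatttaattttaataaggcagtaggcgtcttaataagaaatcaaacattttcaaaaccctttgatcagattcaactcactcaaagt
COX5B: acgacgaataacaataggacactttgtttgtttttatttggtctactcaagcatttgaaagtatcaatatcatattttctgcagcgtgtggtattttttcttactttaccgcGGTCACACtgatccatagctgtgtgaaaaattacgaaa
COX7AL: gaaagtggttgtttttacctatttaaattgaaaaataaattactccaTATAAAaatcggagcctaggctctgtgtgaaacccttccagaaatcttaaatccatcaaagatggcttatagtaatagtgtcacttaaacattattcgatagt
COX7A: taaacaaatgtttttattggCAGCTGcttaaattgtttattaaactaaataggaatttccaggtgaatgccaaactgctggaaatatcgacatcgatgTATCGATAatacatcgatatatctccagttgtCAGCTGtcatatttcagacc
ATPsynbetaL: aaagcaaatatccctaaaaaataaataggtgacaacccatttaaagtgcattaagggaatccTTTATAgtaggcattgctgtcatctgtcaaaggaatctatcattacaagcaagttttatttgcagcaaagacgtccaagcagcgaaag
ATPsynbeta: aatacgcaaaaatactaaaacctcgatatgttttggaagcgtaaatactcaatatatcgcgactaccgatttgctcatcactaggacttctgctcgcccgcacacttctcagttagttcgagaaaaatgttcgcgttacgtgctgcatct

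Strong promoters of complexes I, III and V are shown next, since their summits carry high ranks described below, and COX7B of complex IV is shown for its motif. They are RFeSP (chr2L:1614111-1614260, minus strand), COX7B (chr3L:17425377-17425526, plus strand), ATPsynO (chr3R:15265491-15265640, plus strand), UQCR-C1 (chr3R:14890131-14890280, plus strand) and ND-51 (chr2L:6062708-6062857, minus strand). RFeSP and COX7B, like COX5B above, hold the core of Ohler motif 1 just downstream of the start, with its first base at position 7 in RFeSP, 10 in COX7B and 13 in COX5B (the start site is position 1).
RFeSP: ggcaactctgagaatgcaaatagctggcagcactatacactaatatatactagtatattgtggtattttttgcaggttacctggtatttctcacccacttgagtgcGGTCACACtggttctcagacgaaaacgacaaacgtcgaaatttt
COX7B: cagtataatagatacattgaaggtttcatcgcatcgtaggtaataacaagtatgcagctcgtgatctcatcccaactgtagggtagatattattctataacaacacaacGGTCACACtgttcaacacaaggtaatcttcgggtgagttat
ATPsynO: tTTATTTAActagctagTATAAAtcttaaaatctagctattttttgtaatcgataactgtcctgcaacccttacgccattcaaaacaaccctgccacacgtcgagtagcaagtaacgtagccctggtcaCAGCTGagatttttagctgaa
UQCR-C1: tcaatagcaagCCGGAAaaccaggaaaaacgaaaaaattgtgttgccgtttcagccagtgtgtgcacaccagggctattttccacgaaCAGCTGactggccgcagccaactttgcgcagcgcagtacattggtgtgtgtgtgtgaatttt
ND-51: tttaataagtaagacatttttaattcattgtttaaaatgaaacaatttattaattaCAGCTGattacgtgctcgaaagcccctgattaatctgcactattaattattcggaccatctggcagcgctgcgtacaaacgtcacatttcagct

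The duplicates were compared with their parents, gene by gene. Each of the 21 duplicates was paired by name with the gene for the same subunit, which gave 18 distinct parents, of which sun, levy and cype carry names outside the rule. The duplicate was bound in 0 of 21 pairs and the parent in 20 of 21. Counted once each, 17 of the 18 distinct parents were bound. The nearest IDR summit lay at a median of 11627 bp from the start of a duplicate (lowest 509 bp, highest 124171 bp), against a median of 65 bp over the 18 parents. Over all genes that were not bound the median was 9361 bp. The 1 pair without a bound parent was ND-B14.5AL with ND-B14.5A.

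**Figure D2:**
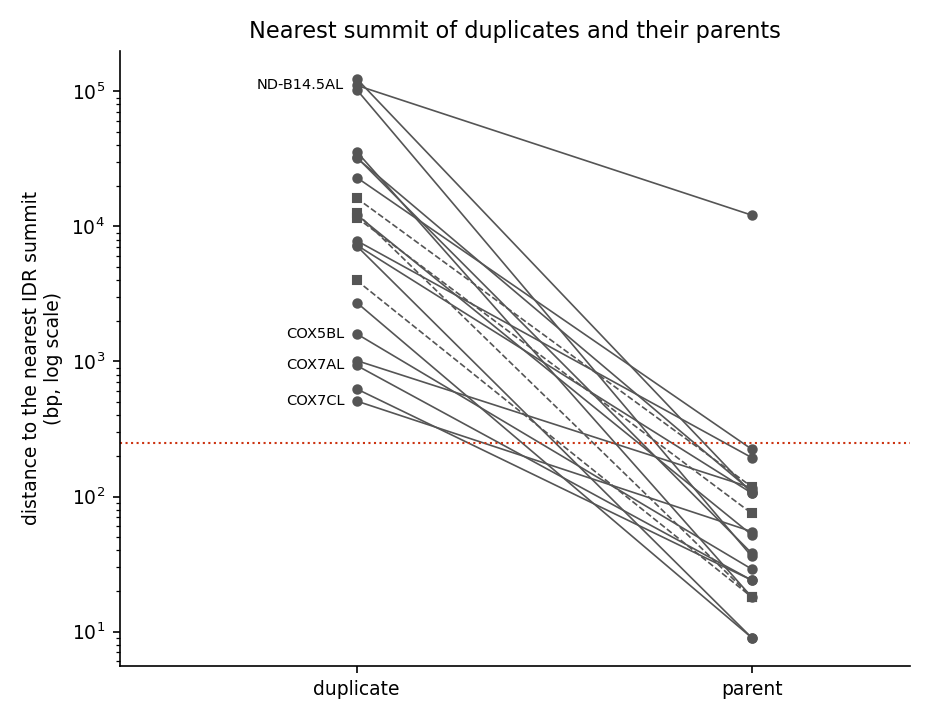
Distance from the nearest start site to the nearest IDR summit (y axis, bp, log scale) for each duplicate (left) and its parent (right), joined by a line; squares with dashed lines are pairs whose parent has a name outside the rule. The dotted line is the 250 bp limit: all 21 duplicates lie above it and 20 of 21 lines end below it.

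In 3 pairs the starts lie within 5000 bp of each other, so the same stretch of chromatin holds a bound and an unbound copy. COX5BL had its nearest summit at 1602 bp, and that summit was the one at the COX5B start, which ranked 3166 in the IDR list with a signal value of 212. COX5BL had no region within 250 bp in any of the 3 replicate lists, and COX5B ranked 2228, 3479 and 3542 in replicates 1, 2 and 3. COX7AL had its nearest summit at 934 bp, and that summit was nearest to a start of DppIII. Within 250 bp COX7AL had a region at rank 21761 in replicate 1 and at rank 13328 in replicate 2, with none in replicate 3. COX7CL had its nearest summit at 509 bp, of rank 2860 and 358 bp from a start of COX7C. Within 250 bp COX7CL had no region in any of the 3 replicate lists. COX7C, the parent of COX7CL, has 2 start sites, each with another summit within 250 bp. At its first start, 1995 bp from that of COX7CL, the summit ranked 5438 with a signal value of 148. The stronger summit, at rank 901 with a signal value of 356, lay at its other start, inside the gene and nearer to COX7CL. Signal values are the authors' own and are used here only to rank peaks within a list.

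Below the IDR threshold the duplicates also had few regions. In the pooled list of 30000 regions, which reaches into background, 2 of 21 duplicates and 61 of 66 other members had a region within 250 bp, and so did 52.2% of all genes. The 2 were ND-B14.5AL, at rank 16754 with a signal value of 55.7, and COX6AL, at rank 18344 with a signal value of 51.9. In the whole replicate lists of 30000 regions, 4, 5 and 3 duplicates had a region in replicates 1, 2 and 3, and 62, 65 and 61 of the other members did. Over all genes these shares were 52.0%, 50.2% and 50.5%. No duplicate had a region in all 3 replicate lists, 4 had one in 2 of them, 4 in 1 and 13 in 0. COX7AL2, a duplicate of COX7A, came closest to the top regions, at rank 8473 in replicate 3, with rank 22583 in replicate 2 and no region in replicate 1.

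The sequence around the starts was examined for repeats, since reads from repeated sequence may not be placed with certainty. Whether the placing of reads has a part in the calls was not tested. For all 21 duplicates, 100% of the 31-base words within 250 bp of the most upstream start occurred once in the assembly. The same held for 64 of the 66 other members, the exceptions being ND-30 at 99.6% and ND-AGGG at 60.5%. Duplicates also differed from the other members in gene structure. Single-exon genes made up 5 of 21 duplicates, against 0 of 66 other members and 15.2% of all genes. The median gene length was 703 bp for duplicates, against 1210 bp for the other members and 2166 bp for all genes. Genes with 1 annotated start made up 90.5% of duplicates, against 51.5% of the other members and 73.5% of all genes. A summit at any start made a gene bound. With the most upstream start only, 49 of 66 other members (74.2%), 0 of 21 duplicates and 30.6% of all genes were bound. The median GC content of the promoter, 250 bases before to 50 after the most upstream start, was 34.0% in duplicates, against 34.3% in the other members and 38.0% in all genes.

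The complexes were compared next, without their duplicates. Complex IV had all 8 of its genes bound, complex V 11 of 12, complex I 30 of 34, complex III 7 of 8 and complex II 2 of 4. In replicates 1, 2 and 3 the counts were 8, 8 and 8 for complex IV, 11, 12 and 11 for complex V, 28, 30 and 27 for complex I, 7, 8 and 6 for complex III and 3, 3 and 2 for complex II. The exact intervals of the complexes overlap, from 6.76% to 93.2% for complex II and 63.1% to 100% for complex IV, so these shares cannot be ordered at this number of genes. The ranks were more spread out. The bound members of complex IV had a median rank of 508.5 and those of complex V 543, against 1141 for complex III, 1862.5 for complex II and 2540 for complex I, where 1 is the strongest of 5986 peaks. The median over all bound genes was 2255. Among the strongest 1496 peaks were 7 of 8 bound genes of complex IV, 9 of 11 of complex V, 4 of 7 of complex III, 7 of 30 of complex I and 0 of 2 of complex II, against 35.2% of all bound genes. Median ranks in the top regions of the replicates were 530 ± 176 for complex IV and 457 ± 238 for complex V, against 2213 ± 443 for complex I and 2225 ± 17.3 for all bound genes (SD, n = 3). In each replicate complexes IV and V were thus stronger than complex I.

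**Figure D3:**
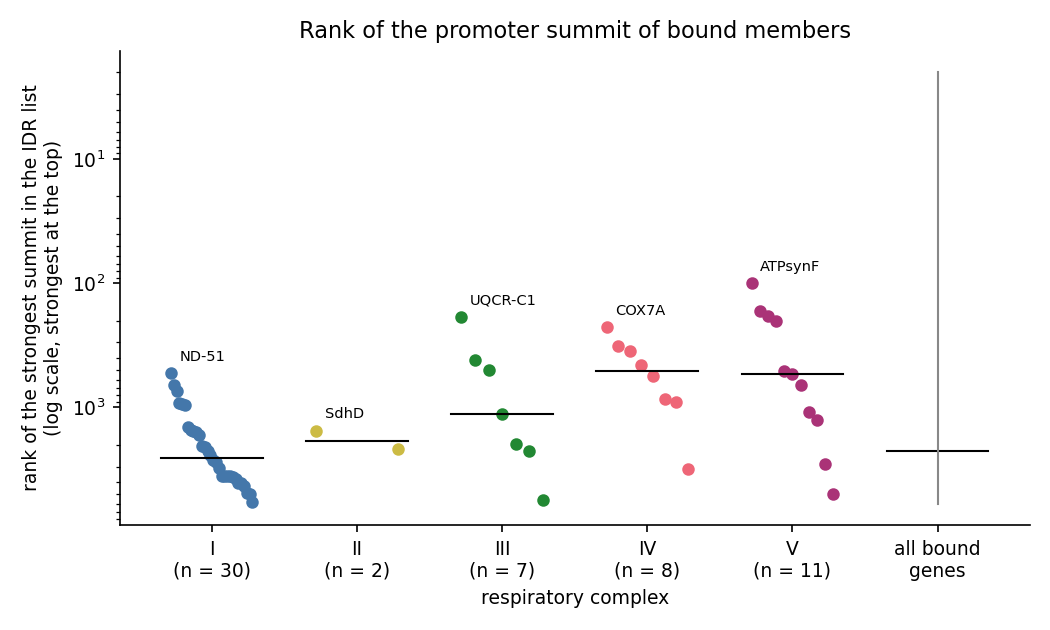
Rank of the strongest promoter summit in the IDR list (y axis, log scale, strongest at the top) for each bound member of complexes I to V, with the median as a line and the strongest gene named. At the right the line spans all bound genes with their median of 2255; complexes IV and V sit mostly above rank 1000 and complex I mostly below it.

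The 11 bound genes of the ATP synthase ranged in rank from 100 to 5008. ATPsynF, subunit f of the membrane part, had the strongest summit of all members, at rank 100 in the IDR list and at ranks 132, 91 and 124 in replicates 1, 2 and 3. That summit also lies within 250 bp of a start of CG3548. Of the other subunits of the membrane part, ATPsynG (subunit g) ranked 1276 and ATPsynE (subunit e) 5008, the weakest of the complex. ATPsynO, the stalk subunit OSCP, ranked 169 in the IDR list and 97, 294 and 194 in the replicates. ATPsynB, another subunit of the stalk, ranked 183, and 148, 311 and 241 in the replicates. All 4 genes of the peripheral stalk were bound, with ATPsynD at rank 666 and ATPsynCF6 at rank 1101. Of the catalytic head and its central shaft, ATPsynbeta ranked 202 and ATPsyngamma 510, ATPsyndelta lay far lower at 2847, and blw, the alpha subunit, was not bound. The ATPsynbeta summit also lies within 250 bp of a start of CG11076, and the ATPsynD summit within 250 bp of one of mRpL55. ATPsynC, which forms the rotor ring, ranked 543 in the IDR list. Its 3 replicates were far apart, at 162, 384 and 2283.

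In complex IV all genes are supernumerary subunits, since the catalytic core is encoded in mitochondrial DNA. COX7A ranked 226 in the IDR list and 115, 165 and 588 in replicates 1, 2 and 3. Its summit also lies within 250 bp of a start of Arl2. COX5A ranked 323, and 166, 658 and 342 in the replicates, with a summit that also lies at the start of the neighbouring gene glo. COX6B ranked 349, and 342, 442 and 473 in the replicates, with its summit 2 bp from the start. That summit also lies within 250 bp of starts of CG18809, CG33932 and Rpp20. COX4, COX7B, COX8 and COX7C followed at ranks 458, 559, 858 and 901, and COX5B stood apart at 3166. The COX7B summit also lies within 250 bp of a start of Sec3. The 3 replicates of COX6B lay close together, and replicate 3 of COX7A was weaker than the other two.

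In complex III the strongest summit was at UQCR-C1, a core subunit, at rank 186 in the IDR list and 240, 134 and 240 in replicates 1, 2 and 3. RFeSP, the Rieske iron-sulfur protein that passes electrons on towards cytochrome c, ranked 417, and 206, 482 and 843 in the replicates. UQCR-C2, the other core subunit, ranked 503, and 352, 284 and 969 in the replicates. The small subunits UQCR-14, UQCR-Q, UQCR-6.4 and UQCR-11 ranked 1141, 1993, 2238 and 5610. UQCR-C1 thus stood above the other 2 in each replicate except replicate 1, where RFeSP was stronger.

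Complex I was bound widely but at lower ranks. ND-51, the FMN-binding core subunit, ranked 534 in the IDR list and 341, 443 and 1257 in replicates 1, 2 and 3. The accessory subunits ND-B18 and ND-42 ranked 660 and 734. ND-B18 ranked 767, 1181 and 612 in the replicates, and ND-42 ranked 979, 1299 and 548. The ND-51 summit also lies within 250 bp of a start of CG13994, and the ND-42 summit within 250 bp of one of Cchl. Of the 7 core subunits encoded in the nucleus 6 were bound, and of the 27 accessory subunits 24. The weakest bound accessory subunit was ND-SGDH, at rank 5784. After ND-51 the bound core subunits ranked 2410 for ND-20, 2670 for ND-75, 3551 for ND-23, 3792 for ND-49 and 5012 for ND-24. The median rank of the 6 bound core subunits was 3110.5, against 2177.5 for the bound accessory subunits. In the top regions of replicates 1, 2 and 3 the medians were 1990, 2687.5 and 3195.5 for core subunits. For accessory subunits they were 1601, 2557.5 and 2136, so the order was the same in each replicate but the ranges overlapped.

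Complex II was bound at SdhD, a membrane anchor, and SdhB, the iron-sulfur subunit. SdhD ranked 1545 in the IDR list and 2836, 840 and 1825 in replicates 1, 2 and 3. SdhB ranked 2180, and 2354, 1576 and 2469 in the replicates. SdhA, the flavoprotein, and SdhC, the other anchor, were not bound.

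**Figure D4:**
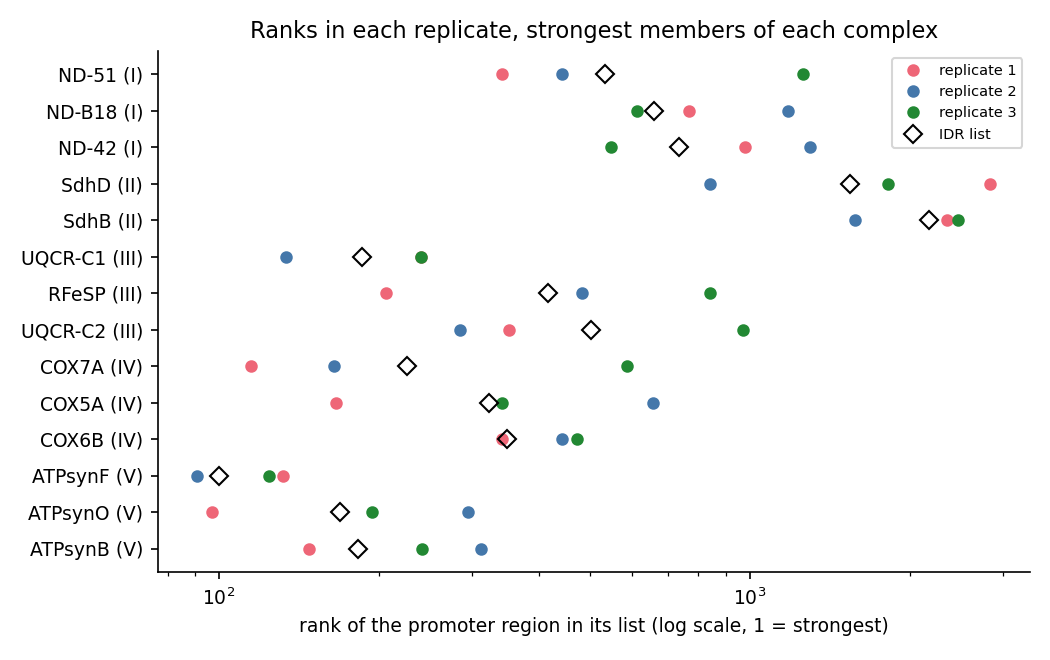
Rank of the promoter region (x axis, log scale, 1 is the strongest) in each replicate (coloured points) and in the IDR list (open diamonds) for the strongest bound members of each complex, 3 for each except complex II with 2. ATPsynF lies near rank 100 in every list, and ND-51 and COX7A are weaker in replicate 3 than in the others.

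The 8 members that are not duplicates and were not bound differed in how far they missed the limit. SdhC had a strong summit at 307 bp, of rank 638, whose nearest start site was that of Tctp, 91 bp away. ND-30, the only core subunit of complex I that was not bound, had a summit at 445 bp, nearest to CG15812. The summit of blw lay 464 bp inside the gene at rank 768. Cyt-c1, the electron carrier subunit of complex III, and SdhA had summits at 529 bp and 570 bp. These 5 genes all had a summit within 1000 bp, as had 3 of 21 duplicates (14.3%) and 11.1% of all genes not bound. ND-B15 at 1371 bp, ND-B14.5A at 12124 bp and ND-AGGG at 144689 bp did not. ND-B15 and ND-B14.5A still had a region of the pooled list within 250 bp, at ranks 6699 and 7639, as did SdhA at 7717. The other 5 had none in the pooled list. They were ND-AGGG, where 60.5% of the 31-base words were unique, ND-30, at 99.6%, and Cyt-c1, SdhC and blw, each at 100%. Whether repeats have a part in the missing regions was not tested. In single replicates 6 of the 8 did have a top region within 250 bp of a start. That of blw ranked 244 in replicate 2 and 3439 in replicate 3, with no region in replicate 1. ND-B15 ranked 4858 and 4988 in replicates 1 and 2, and 14168 in replicate 3. SdhC had a top region in replicate 1, at rank 1705, Cyt-c1 in replicate 2, at rank 3522, SdhA in replicate 2, at rank 4668, and ND-30 in replicate 3, at rank 3259. None of the 8 had one in all 3 replicates. On the other side of the limit, bound members were ordered by their nearest summit. The farthest from their start were ND-19 at 228 bp, ND-49 and ND-MLRQ at 224 bp each, and UQCR-11 at 194 bp. ND-B14.5B at 193 bp and ATPsyndelta at 184 bp came next. The strongest summits of SdhB and ATPsynE lay at 191 bp and 188 bp, but each of these genes had a nearer one.

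Replicates placed most of the bound members among their top regions. Of the 58, 49 were in the top regions of all 3 replicates, 8 in 2 and 1 in 1. Among all 4655 bound genes 3320 were in all 3. As shares of every gene, bound or not, these are 56.3% of members and 23.8% of all genes. The member in 1 replicate was ND-19, with a region at rank 1639 in replicate 2 and none within 250 bp in the lists of replicates 1 and 3. For the 56 bound members with a region in every replicate list, the highest rank was a median of 2.33 times the lowest, and at most 14.1 times, for ATPsynC. ND-49 was next at 8.04 times, with ranks 1817, 2555 and 14602. Across members, ranks in pairs of replicates had a Spearman rho of 0.760, 0.763 and 0.761, over 57, 56 and 56 genes, which describes genes of the same libraries and is given without a test. The summit positions of a gene spanned a median of 66.5 bp over the 3 replicates (lowest 4 bp, highest 256 bp).

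The summits of the members lay more often downstream of the start than those of all bound genes. In 41 of the 58 bound members (70.7%) the strongest summit was downstream of the start site, within the transcribed region, against 39.1% of all bound genes. The median position was 42 bp downstream for members and 24 bp upstream for all bound genes. In the top regions of replicates 1, 2 and 3 the members' share downstream was 68.4%, 73.8% and 57.4%, against 42.1%, 44.1% and 35.4% for all genes. The lowest replicate of the members was thus above the highest of all genes. Complex V had 10 of 11 summits downstream and complex III 6 of 7, while complex I had 18 of 30. In the replicates the share was 87.9% ± 13.9 for complex V and 56.4% ± 8.07 for complex I (SD, n = 3). A total of 20 of 58 bound members (34.5%) shared their summit with another gene's window, against 42.9% of all bound genes. With only the summits that lie in the window of 1 gene, 37 of 42 members (88.1%) had a downstream summit, against 56.5% of all such genes. On the same summits the share was 53.8% for mitochondrial ribosomal protein genes and 65.7% for cytoplasmic ones. Among genes with 1 annotated start the shares were 73.1% of 26 members and 36.4% of all genes.

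**Figure D5:**
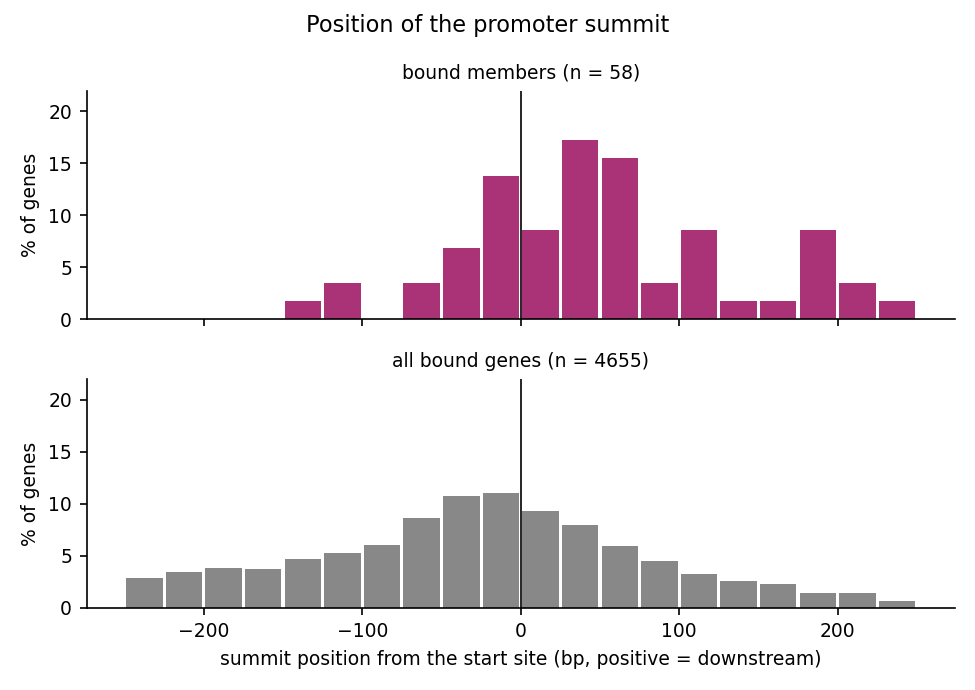
Position of the strongest promoter summit from the nearest start site (x axis, bp, positive is downstream) as a share of genes (y axis, %) for the 58 bound members (top) and all 4655 bound genes (bottom). The members have 41 summits downstream of the start, at a median of 42 bp, while the median of all bound genes is 24 bp upstream.

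By the annotation of their own gene, 31 of the 58 summits lay in a 5' UTR exon, 8 in a coding exon, 6 in an intron and 13 upstream of the gene. The same count was not made for all bound genes, so these numbers are not shown to be particular to the members. The median distance to the start, regardless of side, was 54.5 bp, against 68 bp for all bound genes. The replicate medians were 64.7 ± 13.4 bp for members and 72.0 ± 6.08 bp for all genes (SD, n = 3), so the distances did not differ beyond their spread. A total of 19 members had 2 summits within 250 bp of a start (6.5% of all genes had 2 or more). They were 32.8% of bound members, against 19.5% of all bound genes. In 17 of them the summits were 199 to 231 bp apart, and 199 bp is also the smallest spacing of any neighbouring summits in the list. The 2 others were ATPsynE at 245 bp and COX7C, whose summits lay 1225 bp apart at different start sites.

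Short motifs were sought on both strands in the window of 250 bases before to 50 after the most upstream start. The letters searched were TATCGATA for the DRE, GGTCACAC for the core of Ohler motif 1 and CAGCTG for an E-box. For promoter elements they were TATAAA for the core of the TATA box and GAGAG for the binding element of the GAGA factor. For factors linked to respiratory genes in mammals or flies they were CCGGAA for Ets, GCGCATGC for the core shared by NRF1 and Ewg, and TTANNTAA for the core of the nuclear respiratory gene element. Matches may overlap each other. Ohler motif 1, which the factor M1BP is known to bind at promoters of widely expressed genes, was in 1 of 21 duplicates and 16 of 66 other members (24.2%), against 7.7% of all genes. All 16 of the others were bound, so 27.6% of the bound members held it, against 17.6% of all bound genes. Among all genes with the motif 76.4% were bound, so a high share is not particular to the members. In complex IV 4 of 8 members that are not duplicates held it. The duplicate with the motif was COX7AL. Over the 16 bound members the summit lay a median of 99.5 bp from the centre of the motif, and 1.5 bp at the closest, in ND-PDSW.

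The DRE, the site of the factor DREF, was in 0 of 21 duplicates and 9 of 66 other members (13.6%), against 9.36% of all genes. Of those 9, 7 were bound, against 67.4% of all genes with the DRE. It was in 12.1% of the bound members, against 18.9% of all bound genes. Within 100 bases before to 50 after the start the order turned, with the DRE in 6.06% of the other members and 7.63% of all genes. In COX7A it spans the start site. The E-box was in 1 of 21 duplicates and 19 of 66 other members (28.8%), against 17.7% of all genes and 24.5% of all bound genes. The core of the TATA box was in 6 of 21 duplicates and 40 of 66 other members (60.6%), against 45.8% of all genes, in promoters whose median GC content was also lower than that of all genes. In the shorter window it was in 3 of 21 duplicates and 16 of 66 other members (24.2%), against 23.9% of all genes, so the difference was not seen there. The respiratory element core was in 5 of 21 duplicates and 22 of 66 other members (33.3%), against 23.5% of all genes. Over all genes 40.0% of those with it were bound, and 31.3% of those without it. Over all 87 members, duplicates included, both shares were 66.7%. Among the 22 members with it that are not duplicates 18 were bound. The GAGA element was in 7 of 21 duplicates and 12 of 66 other members, against 29.7% of all genes, and Ets in 1 of 21 and 3 of 66, against 6.78%. The NRF1 and Ewg core was in 0 of 87 members and in 1.05% of all genes. A match is a description of the letters, and whether these sequences have a part in YL-1 binding was not tested.

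The other genes of mitochondrial respiration were looked up from lists of named genes. Their counts stand against 33.4% of all protein-coding genes bound, and several lists are short. Of 10 respiratory subunits outside the name rule 5 were bound, namely levy (COX6A, rank 137), ox (rank 266), sun (the epsilon subunit of the ATP synthase, rank 1667), cype (rank 3277) and Cyt-c-p (cytochrome c, rank 3780). The 5 that were not bound were Cyt-c-d, Cyt-c1L, knon, SdhAL and SdhBL, each a second copy of a respiratory gene, although only some have a name that the rule for duplicates would take. Cyt-c-d had a summit at 364 bp. Assembly factors were bound in 10 of 12 genes, with CIA30, Scox and Cox17 the strongest at ranks 483, 2580 and 3083. Genes of the citric acid cycle and pyruvate dehydrogenase were bound in 11 of 14, with Idh3g, Idh3b and Scsalpha1 at ranks 167, 391 and 1155. Genes of mitochondrial DNA upkeep and transcription were bound in 5 of 7, with PolrMT, TFAM and PolG2 at ranks 331, 970 and 2346. Carriers were bound in 2 of 5, Mpcp2 at rank 134 and porin at rank 219. Of 4 regulator genes 3 were bound, Dref at rank 19, srl (the fly PGC-1) at rank 364 and Ets97D at rank 1126. Among larger families, 57 of 73 mitochondrial ribosomal protein genes (78.1%), 83 of 92 cytoplasmic ones (90.2%) and 17 of 33 vacuolar ATPase genes (51.5%) were bound. Their median ranks were 2293, 283 and 1608, against 1549 for the bound members.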

How the data were processed

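ChIP-seq region lists of 3 biological replicates of 1 group were used, in the narrowPeak format and the dm6 build, per the labels. The authors deposited a list of 30000 regions for each replicate and for the pooled libraries, peaks and background together, and an IDR-thresholded list of 5986 peaks. Each region has a signal value (column 7) as deposited by the authors, on a scale that differs between lists, and was used only to rank regions within a list. The deposited −log10 q-value is at its maximum, 4.13, for every IDR peak and was not used to rank. The deposited summit offset, in bp and another column of the file, gave summit positions. Which aligner and which peak caller made the lists is not given in the sources used here. Depth is unknown, since the lists hold no read counts.

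Start sites came from Ensembl 115 and sequence from RefSeq's copy of Release 6. Where several summits lay in the window, the strongest gave the rank. With 1 group no test between groups was made, and counts, medians and replicate SDs are given with exact binomial intervals. The labels name biological replicates but not separate cultures or collections, so the SD may be partly technical. All members are accounted for, and the named ones are the 3 strongest of each complex, the core subunits of complex I, the duplicates with their parents, the unbound genes, those at the 250 bp limit and the 3 strongest of each other list. Other members named, such as those shown or named for a motif, a summit position or a complete account of a complex, were chosen after their values were seen. Members and lists were chosen with earlier results of these data known. Window assignment and motif search were tested on simulated data. Of the 54 list symbols written out, 4 were not matched (Ecsit, SdhAF3, Foxred1 and tam) and are not analysed here. Analyses used Python 3.11.15, pandas 2.3.3, numpy 2.4.6 and scipy 1.17.1.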

Additional observations from a re-analysis of the deposited data

How the results depend on the processing

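The counts of bound genes were recomputed under 11 alternatives. Bound members ranged from 42 of 87 (IDR peaks above the median signal) to 66 (window of 1000 bp), and the members that are not duplicates from 42 to 63 of 66. Bound duplicates stayed at 0 except with the 1000 bp window, which gave 3 (COX7AL, COX7AL2 and COX7CL), and with all regions of the pooled list, which gave 2 (COX6AL and ND-B14.5AL). Of all genes, 2915 (20.9%) were bound with IDR peaks above the median signal and 7277 (52.2%) with the pooled list, against 4655 (33.4%). With windows of 100 bp and 1000 bp the share of all genes was 23.6% and 40.8%. Complex I fell to 17 bound genes above the median signal, complex II had 4 with the 1000 bp window, and complex III had 3 with a window of 100 bp. Regions shared by the 2 remaining replicates gave 52 to 56 bound members when each replicate was left out in turn. That is 59.8% to 64.4% of members, against 27.6% to 28.3% of all genes. The median rank of the bound members was then 1075.5 without replicate 2 to 1532 without replicate 1, in replicate lists of other regions, against 1549 in the IDR list. Their median distance from the start was 57 bp to 79 bp, the highest without replicate 1, and 40.5 bp with the 100 bp window, against 54.5 bp. With 3000 top regions the replicate mean share of members bound was 49.8%, against 20.5% of all genes, and with 10000 it was 70.9%, against 39.7%. In promoters cut to 100 bases before to 50 after the start, members with the DRE numbered 4 (4.6%, against 7.63% of all genes), with the TATA core 19 (21.8%, against 23.9%), with the GAGA element 12 (13.8%, against 18.0%) and with the respiratory element core 11 (12.6%, against 8.12%). Apart from the windows and lists themselves, the cause of these shifts was not tested. Using the nearest summit in place of the strongest, an alternative chosen after seeing the data, gave a median rank of 1619.5. A ranking by column 8 was not run, since that column is constant and the files are in genome order. No paired analysis was possible because there is 1 group.

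The lists give no depth, so a gene without a summit is not shown to lack YL-1, and signal values cannot be compared between lists. Whole embryos of mixed age hide differences between tissues and stages. The 21 duplicates are not independent, since 3 lie beside their parent and some share a parent.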
